A study of Mus musculus with 4 samples.

Results

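The genes described here are the neurotrophin ligands and the receptors that bind them, 8 of the 55385 genes in a bulk RNA-seq count table of mouse granulosa cells (GCs). They were chosen by gene symbol and family membership, and no threshold on their measured levels entered the rule. The ligands are Ntf5, which encodes neurotrophin-4 (NT-4), Bdnf, which encodes brain-derived neurotrophic factor, and Ntf3, which encodes neurotrophin-3. The receptors are Ntrk2 (TrkB), Ntrk3 (TrkC), Ngfr (the p75 receptor), Sort1 (sortilin) and Sorcs2. GCs are the somatic cells that surround and feed the oocyte. The question put to the counts was which ligands and receptors the GCs expressed, at what level against the detection floor, and whether NT-4 in the culture moved any of them.

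Neurotrophins are secreted growth factors that are made as precursors and cut to a mature form. Mature NT-4 and brain-derived neurotrophic factor activate TrkB, and neurotrophin-3 acts mainly through TrkC. The p75 receptor binds every neurotrophin and, together with a sortilin-family co-receptor, the uncut precursors. In the ovary, TrkB is known for a role in early follicle growth and in oocyte survival.

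Kunming mice, females of 12 to 14 days, gave the preantral follicles, which spent 6 days in culture medium with follicle-stimulating hormone. The NT4 group (libraries NT4 1 and NT4 2) came from follicles grown with NT-4, and the Control group (Control 1 and Control 2) from follicles grown without it. The GCs were what remained once the oocyte had been released, and no sort or gate is stated. The study describes the 2 GC samples of a group as coming from independent experiments. No genotype differed between the groups, and the p-values below measure the spread between these 4 samples only.

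The 4 libraries held 49520092, 73743901, 61980073 and 78704020 counts in Control 1, Control 2, NT4 1 and NT4 2. Low counts clustered at multiples of 4, and a read pair was therefore counted as 4. The detection floor was set at 3 read pairs, or 12 counts. In CPM, the counts per 1000000 of the library total, this is 0.152 to 0.242 by library. All 18 GC markers lay above the floor in all 4 libraries, from Inha, the inhibin alpha subunit, at 5855 to 8687 CPM down to Gatm at 4.9 to 7.99 CPM. Other cells left transcripts too. Oocyte markers summed to 76.9 to 113 CPM per library, led per length by Gdf9 at 23 to 30.8 CPM, and theca and stroma markers summed to 1329 to 1903 CPM. Among Schwann cell and glia markers Foxd3 and Cdh19 were at 0 in all 4 libraries and Sox10 did not exceed 0.0508 CPM.

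Of the 8 genes, 6 lay above the floor in all 4 libraries, namely Ntf5, Bdnf, Ntrk2, Ngfr, Sort1 and Sorcs2. Ntrk3 was above it in 2 libraries and Ntf3 in 1. Over the whole table, 16270 genes (29.4%) were above the floor in all 4 libraries, and 61.4% of the 21897 protein-coding genes were. The sortilin-family receptors were the most abundant members in every library, and the Trk receptors and neurotrophin-3 the least.

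**Figure D1:**
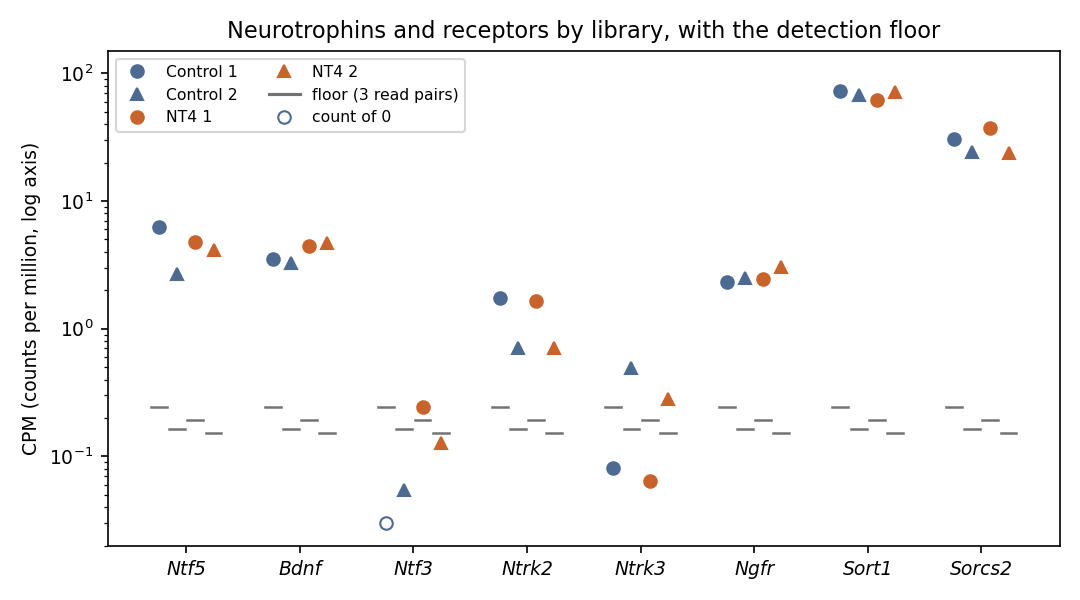
CPM (log axis) of each of the 8 genes in each library, with the detection floor of 3 read pairs of that library as a short grey line. Sort1 and Sorcs2 lie far above the floor, Ntf5, Bdnf, Ngfr and Ntrk2 lie above it in all 4 libraries, and Ntf3 and Ntrk3 scatter around it. The open circle near the bottom is the count of 0 for Ntf3 in Control 1.

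Among the ligands, Ntf5 and Bdnf were expressed at a few CPM and Ntf3 was at the edge of detection. Ntf5 (ENSMUSG00000074121, GRCm38 chromosome 7, 45413695 to 45417179, plus strand) encodes the same factor that was added to the NT4 cultures. Control 1 held 6.2 CPM of it, Control 2 held 2.68, NT4 1 held 4.81 and NT4 2 held 4.13, which rests on 307, 198, 298 and 325 counts. The Control libraries held both the highest and the lowest value, and the NT4 libraries fell between them. The group means were 4.44 ± 2.49 CPM (SD, n = 2) in Control and 4.47 ± 0.48 (SD, n = 2) in NT4. The log2 fold change of NT4 over Control was 0.04 with a standard error (SE) of 0.42 and an adjusted p of 0.9999 by the quasi-likelihood test of edgeR, and its 95% interval ran from 0.489-fold to 2.15-fold. The difference between the groups was smaller than the spread within Control. Of 11 tested oocyte markers 9 had the same extremes, with Control 1 highest and Control 2 lowest, as had 8.02% of all genes tested. So had 3 of 5 tested erythroid markers and 3 of 7 tested macrophage markers. Ratios of Control 1 to Control 2 ran from 1.19 to 2.22 over the 11 oocyte markers, against 2.31 for Ntf5. Oosp1 was at 7.94, 3.58, 6 and 5.45 CPM and Zp2 at 16.5, 8, 10.4 and 8.09 CPM in Control 1, Control 2, NT4 1 and NT4 2, both near the top of that range and named after their values had been seen. The part of oocyte, erythroid or macrophage RNA in the Ntf5 level was not tested.

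Bdnf (ENSMUSG00000048482, chromosome 2, 109674700 to 109727007, plus strand), the other high-affinity TrkB ligand, was the most even of the ligands. Its level was 3.49 CPM (Control 1) and 3.28 CPM (Control 2) without NT-4 and 4.4 CPM (NT4 1) and 4.68 CPM (NT4 2) with it, from 173, 242, 273 and 368 counts. Both NT4 libraries lay above both Control libraries. The same-numbered ratios of NT4 to Control were 1.26 for number 1 and 1.42 for number 2. edgeR gave a log2 fold change of 0.44 (SE 0.23, unadjusted p of 0.112, adjusted p of 0.9999), and the interval of 0.905-fold to 2.05-fold included no change. Bdnf was the only 1 of the 7 tested members whose groups did not overlap, where 26.6% of all 19259 genes tested had groups that did not overlap. Exact Poisson intervals on the estimated read pairs, which cover counting error alone, spanned 2.48 to 4.19 CPM for Control 2 and 3.77 to 5.73 CPM for NT4 2, and so overlapped.

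Markers of theca and stroma also had positive fold changes. All 16 markers had a log2 fold change above 0, with a median of 0.38 against 0.00 over all genes tested. In 10 of the 16 both NT4 libraries lay above both Control libraries, which held for 11.9% of all genes tested. None passed at an adjusted p, and 4 had an unadjusted p under 0.05 in edgeR. Their summed level was 1378 and 1329 CPM in Control and 1903 and 1536 CPM in NT4. Lhcgr and Star of this list can also be made by GCs. The part of these cells in the Bdnf values was not tested. In bulk samples more cells of a type and more RNA per cell cannot be told apart.

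Ntf3 (ENSMUSG00000049107, chromosome 6, 126101412 to 126166910, minus strand) had 0 counts (Control 1) and 4 counts (Control 2) without NT-4, and 15 (NT4 1) and 10 (NT4 2) with it. Only NT4 1, at 0.242 CPM, was above its floor. The count of 0 in Control 1 allows up to 3 read pairs, or 0.242 CPM, and the upper end of the exact two-sided Poisson interval was 0.298 CPM. The gene did not pass the filter on low counts, so no fold change is given. Both Control libraries were below the floor, with an interval of up to 0.302 CPM in Control 2.

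Among the high-affinity receptors, TrkB transcripts were present at a low level and TrkC transcripts were near the floor. Ntrk2 (ENSMUSG00000055254, chromosome 13, 58806569 to 59133970, plus strand) encodes the receptor of the added NT-4. The libraries numbered 1 held 1.74 CPM (Control) and 1.65 CPM (NT4), and those numbered 2 held 0.705 CPM (Control) and 0.712 CPM (NT4). In the same order the counts were 86, 102, 52 and 56. These are 13.0 to 25.5 read pairs, so the level was above the floor in every library but coarse. The order of the libraries followed the replicate number and not the treatment. Libraries numbered 1 held 2.46 times the level of number 2 in Control and 2.31 times in NT4, whereas NT4 over Control was 0.948 within number 1 and 1.01 within number 2. edgeR gave a log2 fold change of -0.03 (SE 0.63, adjusted p of 0.9999), with a wide interval of 0.323-fold to 2.97-fold. The Ntrk2 locus makes a full-length receptor and truncated forms that lack the kinase, and counts per gene cannot tell them apart.

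Marker levels of other cells were read beside the difference between numbers in Ntrk2. Of 7 tested members, 3 (Ntf5, Ntrk2 and Sorcs2) were higher in both libraries numbered 1 than in both numbered 2, where 26.7% of all genes tested were. Another 2 (Ntrk3 and Ngfr) were lower in both, where 21.8% of all genes were. GC markers summed to 16432 CPM in Control 1 and 14626 in NT4 1 against 19822 in Control 2 and 21308 in NT4 2, and 11 of 18 were lower in both libraries numbered 1. The inhibin subunits Inha, Inhba and Inhbb were among these 11 and made up most of the sum. Another 5 were higher in both, among them Amh, at 303 and 393 CPM against 151 and 89.6 CPM. Oocyte markers were higher in both libraries numbered 1 in 7 of 11 tested, although their sums of 113, 76.9, 91.9 and 89.8 CPM (Control 1, Control 2, NT4 1, NT4 2) hardly differed between the NT4 libraries. Macrophage markers were higher in both for 6 of 7 tested, at sums of 2.62 to 4.82 CPM. Cd68 (0.624 to 1.42 CPM) and Fcgr3 (0.61 to 1.31 CPM) were above the floor in all 4 libraries, and Adgre1, Csf1r, Ptprc and Itgam were at or below it in all 4. The 6 include Csf1r as well as C1qa, C1qb and Mrc1, which had at most 15, 17 and 20 counts in any library, so most of this tally rests on counts near the floor. Surface epithelium markers summed to 65.2 and 68.6 CPM in the libraries numbered 1 against 45 and 46.1 CPM, with 2 of 5 tested higher in both, among them Wt1, which GCs also make, at 22.8 and 24.6 against 10.3 and 8.56 CPM. Endothelial markers summed to 33.8 and 34.4 CPM against 25.2 and 28.3 CPM, with 1 of 9 tested higher in both. Theca and stroma had 4 of 16 tested higher in both libraries numbered 1, neurons 1 of 9 and Schwann cells and glia 1 of 6, so these lists and the endothelial one did not exceed the share over all genes. The part of these cells in the Ntrk2 level was not tested.

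The genes whose pattern over the 4 libraries was most like that of Ntrk2 were sought among 12554 protein-coding genes with a mean of at least 1 CPM. Likeness was the root mean square difference of mean-centred log2 CPM, with a prior count of 2. Mid1ip1 was nearest at 0.017, with 444, 186, 424 and 192 CPM in Control 1, Control 2, NT4 1 and NT4 2. Alcam, an adhesion molecule, followed at 0.028, and Smad2, a transducer of activin and transforming growth factor beta signals, at 0.043. In all, 14 genes lay within 0.1. With 4 libraries of different depth this is a description only, and with a prior count of 0.5 the nearest 3 were Alcam, Mid1ip1 and Shbg.

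Ntrk3 (ENSMUSG00000059146, chromosome 7, 78175959 to 78738012, minus strand), the receptor of neurotrophin-3, had 4 counts in each library numbered 1, 36 counts in Control 2 and 22 counts in NT4 2. Control 2, at 0.488 CPM, and NT4 2, at 0.28 CPM, were above the floor, and the libraries numbered 1 held about 1 read pair each. Its log2 fold change of -0.70 had an SE of 1.22 and an interval from 0.0728-fold to 5.2-fold, with an adjusted p of 0.9999 in edgeR. Neither direction can be read from these counts.

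**Figure D2:**
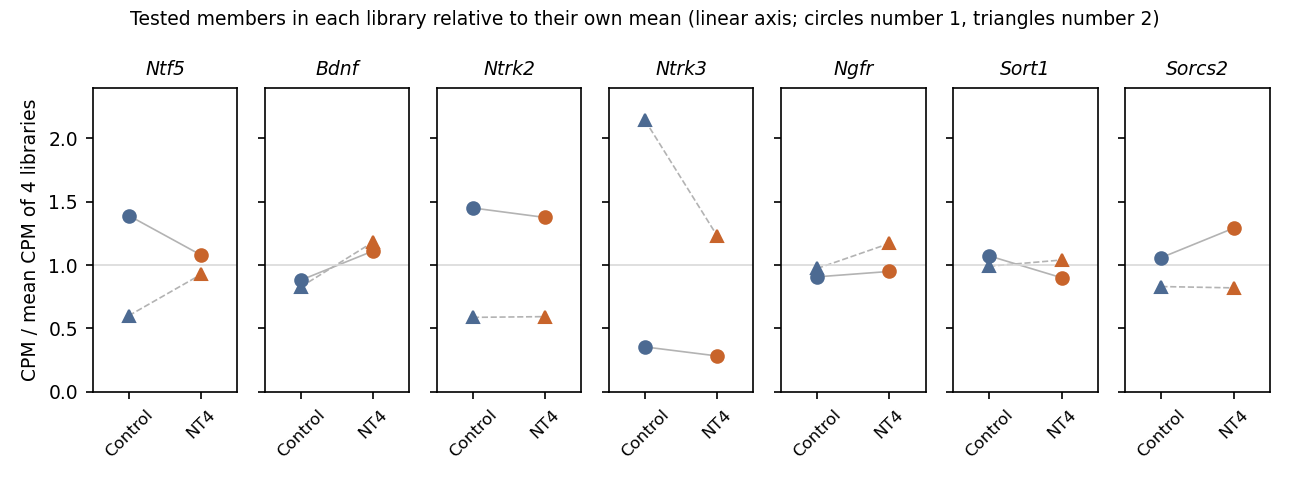
CPM of the 7 tested members in each library divided by the gene's mean over the 4 libraries (linear axis), with Control in blue, NT4 in orange, number 1 as circles and number 2 as triangles. Grey lines join libraries with the same number (solid 1, dashed 2). Bdnf is the gene whose NT4 values both exceed its Control values, and in Ntrk2 the libraries with the same number share a level across the groups.

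Ngfr, the p75 receptor (ENSMUSG00000000120, chromosome 11, 95568818 to 95587735, minus strand), was detected in all 4 libraries at a steady level. Without NT-4 the libraries held 2.34 CPM (Control 1) and 2.51 CPM (Control 2), and with it 2.45 CPM (NT4 1) and 3.02 CPM (NT4 2), from 116, 185, 152 and 238 counts. The highest library was 1.29 times the lowest, and the groups overlapped. Control averaged 2.43 ± 0.118 CPM (SD, n = 2) and NT4 2.74 ± 0.404 (SD, n = 2). The log2 fold change was 0.20 (SE 0.29, adjusted p of 0.9999 in edgeR), with an interval of 0.691-fold to 1.9-fold.

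Per unit of length, p75 transcripts outnumbered TrkB transcripts in every library. Levels are compared between genes as CPM per kilobase of exon sequence (CPM per kb), with 3.45 kb for Ngfr and 19.3 kb for Ntrk2. The ratio of Ngfr to Ntrk2 was 7.55 (Control 1), 19.9 (Control 2), 8.34 (NT4 1) and 23.8 (NT4 2). Taking the longest transcript of each gene as its length, which is 8.74 kb for Ntrk2, the ratios were 3.42, 9.03, 3.78 and 10.8. In CPM alone they were 1.35, 3.56, 1.49 and 4.25. The size of the ratio thus rests on the Ntrk2 length used and on the library, and its direction was the same in all 4. In CPM, Poisson intervals of Ngfr and Ntrk2 overlapped in Control 1 (1.57 to 3.36 against 1.11 to 2.69). They also overlapped in NT4 1 (1.74 to 3.37 against 1.1 to 2.46), but not in the libraries numbered 2. The spread followed Ntrk2, which differed by number, more than Ngfr. Some theca, stroma and nerve cells are known to make p75, and theca and stroma markers were present at the sums given above. Of 10 neuron markers 5 were above the floor in all 4 libraries, at a sum of 12.5 to 15.7 CPM over the list, led per length by Tubb3 at 5.44 to 6.3 CPM, and the 10 Schwann cell and glia markers summed to 119 to 152 CPM. Their part in the Ngfr level was not tested.

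The VPS10-domain receptors, which bind neurotrophin precursors and also sort proteins between the Golgi and endosomes, were the most abundant members. Sort1 (ENSMUSG00000068747, chromosome 3, 108284082 to 108361511, plus strand) had 73 CPM (Control 1), 67.5 CPM (Control 2), 61.3 CPM (NT4 1) and 70.8 CPM (NT4 2), from 3613 to 5570 counts. The libraries stayed within 1.19-fold of each other and the groups overlapped. With a log2 fold change of -0.07 (SE 0.14, adjusted p of 0.9999 in edgeR) and an interval from 0.747-fold to 1.22-fold, Sort1 was the member measured most tightly.

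Sorcs2 (ENSMUSG00000029093, chromosome 5, 36017180 to 36398139, minus strand), a co-receptor of p75 for precursor forms, had 30.6 CPM (Control 1), 24 CPM (Control 2), 37.3 CPM (NT4 1) and 23.7 CPM (NT4 2). The NT4 libraries held the highest and the lowest value. Its log2 fold change was 0.18 (SE 0.25, adjusted p of 0.9999 in edgeR), with an interval from 0.727-fold to 1.76-fold. Sort1 exceeded Ngfr by 10.7 to 14.2 times and Sorcs2 exceeded Ngfr by 3.07 to 5.95 times in CPM per kb, depending on the library.

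Placed in order of mean CPM per kb over the 4 libraries, the members ran from Sort1 (9) over Sorcs2 (3.28), Ntf5 (1.68), Ngfr (0.749) and Bdnf (0.638) to Ntrk2 (0.0622), Ntf3 (0.0617) and Ntrk3 (0.00757). The first 5 places were the same in all 4 libraries. Ranges did not overlap between Sort1 and Sorcs2, Sorcs2 and Ntf5, Ntf5 and Ngfr, or Bdnf and Ntrk2. Ngfr and Bdnf overlapped, with means 1.18-fold apart, as did Ntrk2 with Ntf3 and Ntf3 with Ntrk3. With the longest transcript as the length, Bdnf (0.929) came before Ngfr (0.749). The gap of 10.3-fold between Bdnf and Ntrk2 depends on the length used, and the exons of Ntrk2 are the union of 10 annotated transcripts. In CPM alone, Bdnf was 2.01 to 6.57 times Ntrk2.

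Against all 16270 genes above the floor in every library, Sort1 stood at the 64.8 percentile of CPM per kb and Sorcs2 at the 40.6 percentile. Ntf5 was at the 29 percentile, Ngfr at 18.5, Bdnf at 16.6 and Ntrk2 at 0.504. The percentiles use the union of exons as the length and were not computed for the longest transcript. With the latter, the mean level of Ntrk2 was 0.137 in place of 0.0622. Only Sort1 was above the middle of the expressed genes.

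**Figure D3:**
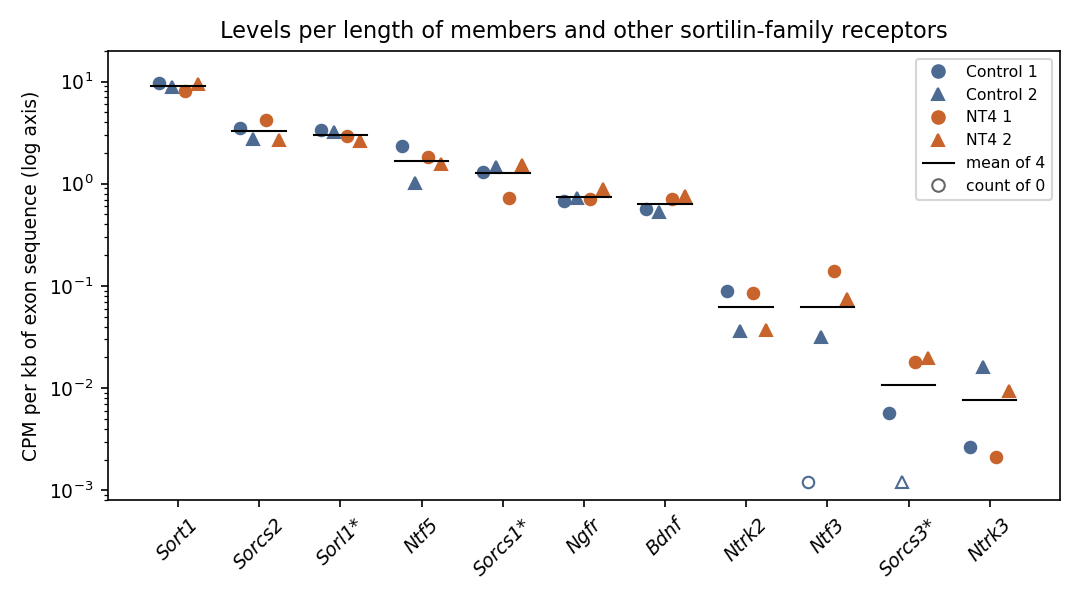
CPM per kb of exon sequence (log axis) in each library for the 8 members and, marked with an asterisk, 3 other sortilin-family receptors, with the mean of the 4 libraries as a black line. The genes are sorted by that mean, from Sort1 at 9 to Ntrk3 at 0.00757. Open symbols near the bottom are counts of 0.

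The remaining sortilin-family receptors fell on both sides of the floor. Sorcs3 had 2, 0, 8 and 11 counts in Control 1, Control 2, NT4 1 and NT4 2 and was at or below it in all 4. Sorcs1 and Sorl1 are the other VPS10-domain receptors expressed here. Sorcs1 was at 11, 12.3, 6.11 and 13 CPM in Control 1, Control 2, NT4 1 and NT4 2, where NT4 1 was the low library. Sorl1 was at 37.8, 36.2, 32.9 and 29.9 CPM in that order, and both NT4 libraries lay below both Control libraries. The log2 fold changes were -0.25 (SE 0.38) for Sorcs1 and -0.22 (SE 0.14) for Sorl1, each at an adjusted p of 0.9999 in edgeR. In CPM per kb Sorl1 was at 0.686 to 1.17 times Sorcs2 by library, and at 0.47 to 0.805 times with the longest transcript as the length.

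No member differed between NT4 and Control at the thresholds used. At an adjusted p under 0.05, edgeR called 0 of the 7 tested members and 0 of all 19259 genes tested (0%), with 383 genes at an unadjusted p under 0.05. Over all genes limma voom also called 0 and DESeq2 called 63, none of them a member. By the selection rule of the study's methods, an unadjusted p under 0.05 together with a fold above 2 or below 0.5, 208 genes (1.08%) were called and no member. Of the 7 members, 4 had a higher and 3 a lower fitted level in NT4, with a median log2 fold change of 0.036 against 0.00 over all genes. Their smallest unadjusted p was 0.112, for Bdnf.

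How large a change could have gone unseen differed by gene. The 95% intervals of Ngfr, Sort1 and Sorcs2 excluded a 2-fold change in either direction. Those of Ntf5, Ntrk2 and Ntrk3 excluded neither a 2-fold rise nor a 2-fold fall. That of Bdnf, 0.905-fold to 2.05-fold, excluded a 2-fold fall but not a 2-fold rise. A permutation of 2 libraries against 2 has 3 splits and cannot give a two-sided exact p below 0.333.

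**Figure D4:**
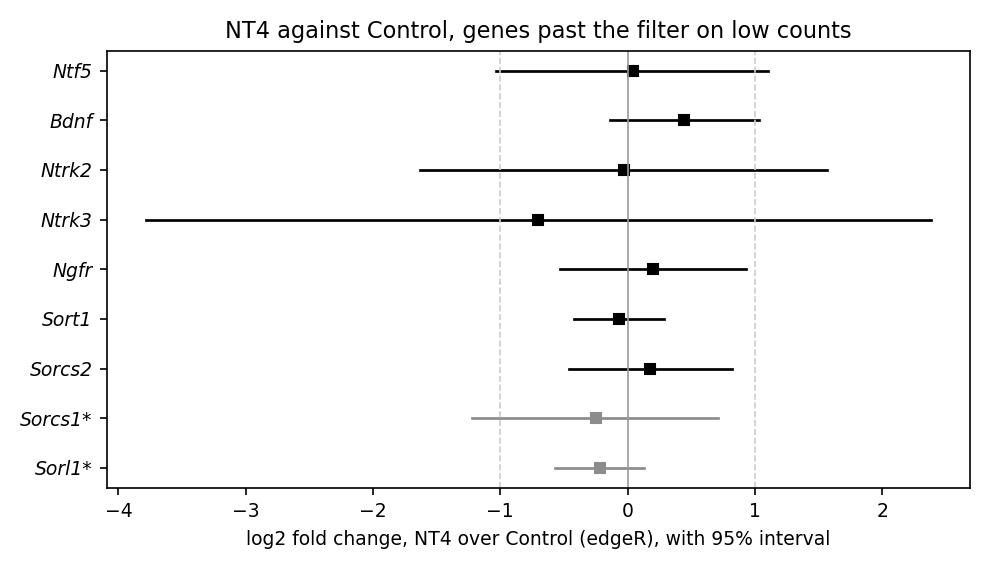
Fitted log2 fold change of NT4 over Control with its 95% interval for the 7 members and 2 other sortilin-family receptors (asterisk, grey) that passed the filter on low counts. Dashed lines mark 2-fold changes. Every interval includes 0, and that of Ntrk3 is the widest.

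The signalling genes downstream of the receptors were expressed broadly and none was called at an adjusted p. Of 33 adaptors and effectors of Trk receptors, 32 were above the floor in all 4 libraries and only Shc3 was not tested. In edgeR 14 had a positive and 18 a negative log2 fold change, with a median of -0.05 and 0 at an unadjusted p under 0.05. The ends of the list were Shc2, an adaptor, at 0.15 (SE 0.35) and Nras, a small GTPase, at -0.43 (SE 0.42). Nras was at 85.1, 99.7, 39 and 95.8 CPM in Control 1, Control 2, NT4 1 and NT4 2, so NT4 1 alone was low.

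All 26 adaptors and proteases of the p75 receptor were above the floor in all 4 libraries, 16 of them with a positive and 10 with a negative log2 fold change and a median of 0.01. Rtn4r, the Nogo receptor that pairs with p75, was at the upper end with 0.86 (SE 0.52). Its levels were 0.727 and 0.705 CPM in Control and 1.79 and 0.788 CPM in NT4, so the value came from NT4 1. At the lower end was Psenen, a subunit of the gamma-secretase that cuts p75, at -0.69 (SE 0.21, unadjusted p of 0.0208 in edgeR). Psenen was at 40 and 44.6 CPM in Control and 21.5 and 30 CPM in NT4, with no overlap between the groups. It shares 8.7% of its exon bases with Gm49396 and 9.3% with U2af1l4 on the opposite strand, whose reads cannot be told apart from its own if strand was not used. Gm49396 was at 6.1 and 9.29 CPM in Control and 2.55 and 0.978 CPM in NT4, and U2af1l4 at 7.11 and 6.31 CPM and 11.9 and 11.8 CPM. Psenen did not pass the adjustment.

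Of 17 genes that cut neurotrophin precursors or regulate that step, 13 were above the floor in all 4 libraries and these were the ones tested. Furin, the convertase of the secretory pathway, was at 113 to 122 CPM, and Plat, the tissue plasminogen activator, at 13.7 to 18.2 CPM, both named for their role after their values had been seen. Of those tested, 9 had a positive and 4 a negative log2 fold change, with a median of 0.09. This tally turned in some fits with a library left out, which were read after seeing the data. It was 4 and 9 without NT4 1 (median -0.08) and 5 and 8 without Control 2 (median -0.01). Without Control 1 it was 9 and 4, and without NT4 2 it was 10 and 3. Plg, which encodes plasminogen, was lowest at -0.97 (SE 0.34, unadjusted p of 0.0345 in edgeR). It was at 2.79 and 2.02 CPM in Control and 1.31 and 1.11 CPM in NT4, and did not pass the adjustment. Mmp7, which can cut precursor forms outside the cell, was at 0 in all 4 libraries.

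Genes that Trk signalling is known to induce, such as immediate early genes, had a median above 0, and none passed the test. Of 22 genes 21 were tested, 13 with a positive and 8 with a negative log2 fold change, and the median was 0.26 against 0.00 over all genes. None had an unadjusted p under 0.05, and in 1 of 21 both NT4 libraries lay above both Control libraries, against the 11.9% of all genes given above. Npas4, an activity-induced transcription factor, was highest at 0.74 (SE 1.59) and Nr4a3, a nuclear receptor, lowest at -0.41 (SE 0.57). Fos and Egr1, named after their values had been seen, were highest in NT4 2, whereas Fosb, at 658, 561, 684 and 622 CPM in Control 1, Control 2, NT4 1 and NT4 2, was not. Fos was at 851, 591, 661 and 1190 CPM and Egr1 at 807, 679, 693 and 1173 CPM in that order, and the sum over the list was 4089, 3115, 3696 and 4962 CPM. The list median was 0.22 without NT4 2, 0.38 without Control 1, 0.02 without Control 2 and -0.07 without NT4 1. These fits were read for the lists after seeing the data. The median was below 0 only without NT4 1, but a fit with 1 library left out is unbalanced in replicate number and cannot tell number from treatment. Of the 21 genes 12 were higher in both libraries numbered 1 and 0 were lower in both, against 26.7% and 21.8% of all genes tested. Npas4 was one of them, at 1.6 CPM in Control 1 and 2.68 in NT4 1 against 0.108 in Control 2 and 0.114 in NT4 2.

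**Figure D5:**
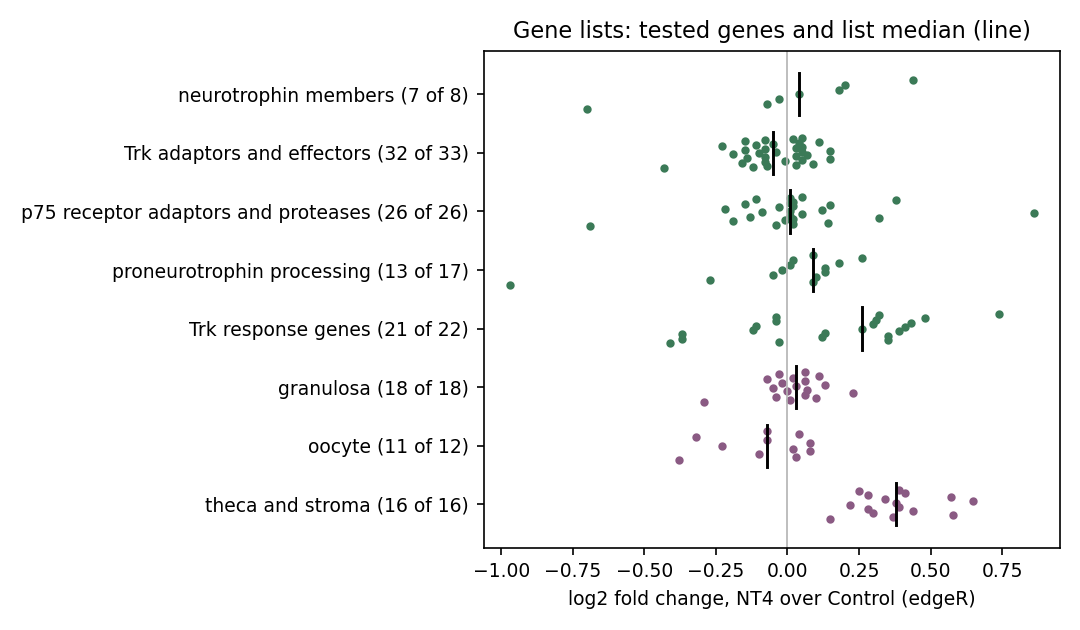
Fitted log2 fold change of NT4 over Control for each tested gene of the pathway lists (green) and of 3 marker lists (purple), with the list median as a black line and the tested share of each list in brackets. Height within a row carries no value. The members centre on 0.04 and all 16 theca and stroma markers lie above 0.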

How the data were processed

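RNA from GCs of 4 cultures was sequenced as read pairs. By their methods, the authors trimmed reads with Cutadapt, mapped them with HISAT2 to the mouse genome (Ensembl v99; mm10 in the submitters' processing notes) and estimated expression by StringTie with ballgown. What they deposited is one expected count per gene and library, whole and not normalized. Libraries kept strand (dUTP in the second strand, then UDG). How StringTie output became whole numbers, and the strand setting at mapping and counting, are not given in the sources used here. Of counts from 1 to 12, 45.4% to 46.2% sat at 4, 8 or 12. An estimated 12380023 to 19676005 read pairs lay behind each library. Floors and Poisson intervals cover counting error only.

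Differential expression was tested with edgeR 4.0.16 in R 4.3.3 (quasi-likelihood, TMM, default low-count filter, group only, two-sided, Benjamini-Hochberg over 19259 genes). The SE is the absolute log2 fold change over the square root of F. CPM used library totals. Coordinates, exon unions and transcripts came from GENCODE M21 (GRCm38), matched by identifier for 55144 of 55385 genes. Of Bdnf exon bases 14.4% are shared with the antisense gene Gm45346, and of Sort1 exon bases 4.5% with the antisense gene Gm12523, both at 0 counts in all 4 libraries. Exons of Ntf5, Ntf3, Ngfr, Ntrk2, Ntrk3 and Sorcs2 are shared with no other gene.

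The members, lists and alternatives were chosen with earlier results of these data known. Genes named were the 8 members and 3 other sortilin-family receptors, and in each further list the highest and lowest fold change or any gene past the study's selection rule. In marker lists the rule took the highest level per length and markers at 0. Other genes named from the lists, such as Gatm, Inhba, Inhbb, Amh, Wt1, Cd68, Fcgr3, Lhcgr, Star, Sox10 and Fosb, were chosen after their values were seen. A few genes that this rule would name are not reported here. Tests ran on simulated counts first. Alternatives covered scaling, filters, DESeq2 1.42.0, limma 3.58.1 voom, a replicate block, each library left out, counts divided by 4, other floors and other gene lengths.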

Additional observations from a re-analysis of the deposited data

How the results depend on the processing

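Of 82 log2 fold changes of members refitted under 12 alternatives, 74 kept their direction. With all 4 libraries 53 of 54 kept it, the exception being Ntrk2, at 0.038 in limma voom, and none passed at an adjusted p. Leaving out 1 library in turn spread Ntrk2 from -0.733 to 0.736 (positive without Control 1 and, at 0.444, without NT4 2), Ntf5 from -0.439 to 0.739 (negative without Control 2 and, at -0.063, without NT4 1), Ntrk3 from -2.130 to 1.131 (positive without Control 2), Sort1 from -0.196 to 0.044 (positive without NT4 1) and Sorcs2 from -0.166 to 0.453 (negative without NT4 1). A fit with 1 library left out is unbalanced in replicate number and cannot tell number from treatment. By number, Ntrk2 differed 2.46 times in Control and 2.31 times in NT4. Bdnf and Ngfr stayed positive in all 12, from 0.380 to 0.498 and from 0.015 to 0.350. Over all genes, the count at an adjusted p under 0.05 rose from 0 to 10 with no filter and to 63 in DESeq2, and leaving out libraries gave 0 to 37 (12 without Control 1, 37 without Control 2). By the study's selection rule the count of 208 became 345 with no filter, 87 with a filter at 1 CPM in 2 libraries, 119 with counts divided by 4 and 334 in DESeq2, and leaving out libraries gave 341 to 512. The cause was not tested. With a replicate block 180 genes met that rule and 0 passed at an adjusted p, and the log2 fold changes were 0.145 for Ntf5 and -0.013 for Ntrk2. The study's methods say that groups were run in parallel, but neither they nor the labels say that a number marks a shared culture, and deviations of same-numbered libraries correlated across genes at 0.14 (Pearson) and 0.26 (Spearman) with 2 pairs, which is a hint of pairing at most. The 6 members above the floor in all libraries were 6 at floors of 1 and 10 read pairs and at the depth of the shallowest library. In the order by level, 6 of 8 members kept their place with the longest transcript and 4 with no length, and 6 to 8 with a library left out. Depth limits Ntf3, Ntrk3 and Ntrk2, which rest on at most 25.5 read pairs in any library.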
